A study of Mus musculus with 24 samples.

Results

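The collagen chain genes are the genes that encode the chains of the collagens, the structural proteins of the extracellular matrix. They were chosen by name: every probe that is not a control and whose gene name on the array is Col, a number, the letter a and a number. This rule found 40 of the 27962 gene names on the array, with 78 of its 41174 probes. By the usual grouping of the chains, 25 probes of 11 genes were fibrillar, 13 probes of 6 genes belonged to the basement membrane collagens, 14 probes of 9 genes to the FACIT group (fibril-associated collagens with interrupted helices) and 26 probes of 14 genes to other types. All 78 accessions on the array led to the same symbol in the RefSeq gene table, and the rule missed 2 probes with older names, Emid2 (now Col26a1) and E330026B02Rik (now Col6a6).

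The RNA came from mouse embryonic fibroblasts, primary connective tissue cells, isolated at day 13.5 from crosses of C57BL6 mice heterozygous for CHIP, a ubiquitin ligase encoded by Stub1 that works with the heat shock chaperones. CHIP null cells were heated at 43 °C or kept at 37 °C as controls, and wildtype cells were heated or kept in the same way. The labels give 30 or 240 min to each of these 4 kinds of culture, which makes 8 groups of 3 arrays, called biological replicates in the labels, and all cultures were grown with β-mercaptoethanol. The number of embryos behind the cultures of a genotype is not given, so that p-values measure the spread between these cultures. Each array held a sample labelled with Cy5 beside the same commercial mixture of mouse RNA labelled with Cy3, so that a level here is the log2 ratio of a sample to that mixture, and levels of different probes were not set against each other.

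The 30 min and the 240 min arrays lay on separate slides, 12 arrays in each set, so that time and set cannot be told apart. The authors' table of processed values also matched, in all 24 columns, the scanner file of the other time label, and the times below are those of the scanner files. Each comparison between heated and control cells shares 1 slide through a lone array of one side (a control in the wildtype 30 min and CHIP null 240 min sets, a heated array otherwise), and no slide held both genotypes under the same treatment. Values with the slide as a block therefore rest on that lone array and take its spread to be that of the others, and for genotype they pass through arrays of further groups. Between 32.89% and 41.73% of all probes were well above background on an array of the 30 min set and between 44.08% and 48.64% on one of the 240 min set. The RNA of Stub1 checked the genotype labels, but not those of time or heat. Its level was -2.43 to -1.72 on the 12 CHIP null arrays and -0.24 to -0.01 on the 12 wildtype arrays. By its brightest probe Xist, the RNA of the inactive X chromosome, was above background on 0 arrays of the wildtype groups at 30 min. It was above background on all arrays of the other groups. Every genotype comparison at 30 min, that of Col7a1 and Col4a1 included, thus also sets cultures without measured Xist against cultures with it.

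Collagen chains are made in the endoplasmic reticulum, where prolyl and lysyl hydroxylases modify them and the chaperone HSP47, encoded by Serpinh1, accompanies them while they wind into helices. Fibrillar chains form the fibrils of skin, bone, tendon and cartilage. Type IV chains form the network of basement membranes, FACIT chains attach to the surface of fibrils, type VI builds beaded microfibrils around cells and type VII forms the fibrils that anchor epithelia to the dermis. Fibroblasts are known as a main source of types I, III, V, VI and XII.

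Of the 78 probes, 46 from 31 genes were tested because they were well above background on all 3 arrays of at least 1 group, 31 probes from 22 genes were so on all 24 arrays, and 22 probes were so on none; 0 probes were saturated. A probe that passed through 1 group alone may differ for that reason, so that counts are also given over the 31 probes. The 9 genes without a tested probe were Col4a3, Col10a1, Col25a1 and Col28a1, above background on no array, and Col13a1, Col19a1, Col20a1, Col23a1 and Col24a1, which had a probe above background on 1 to 6 arrays. Among them were the chain of hypertrophic cartilage (Col10a1) and several chains that cross the cell membrane (Col13a1, Col23a1, Col25a1). All 9 fibroblast markers examined (Pdgfra, Pdgfrb, Thy1, Fn1, Vim, Dcn, Lum, Fap and Postn) were measured above background.

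The sequence just before the start of transcription is shown for genes on which the genotype results turn, as far as the RefSeq table (assembly GRCm38.p6) held them. The table held 32 of the 40 genes, with 35 starts. Capitals mark a GC box (GGGCGG) or a CCAAT box (CCAAT), each on either strand, and each stretch runs 5′ to 3′ on the strand of the gene, 150 bases up to its start. For Col4a1 and Col4a2, which lie head to head so that their transcripts overlap at the start, the 22 bases from one start to the other are given on the plus strand.

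Col4a1 and Col4a2, chr8:11312805-11312826, plus strand: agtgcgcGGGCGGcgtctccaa
Col7a1, chr9:108953436-108953585, plus strand: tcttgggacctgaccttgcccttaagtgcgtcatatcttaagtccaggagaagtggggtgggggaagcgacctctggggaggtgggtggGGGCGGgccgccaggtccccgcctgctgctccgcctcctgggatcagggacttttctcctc
Col6a3, chr1:90843972-90844121, minus strand: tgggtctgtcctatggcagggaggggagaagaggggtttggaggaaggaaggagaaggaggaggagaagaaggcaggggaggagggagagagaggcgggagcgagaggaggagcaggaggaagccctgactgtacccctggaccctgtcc
Col5a3, chr9:20815068-20815217, minus strand: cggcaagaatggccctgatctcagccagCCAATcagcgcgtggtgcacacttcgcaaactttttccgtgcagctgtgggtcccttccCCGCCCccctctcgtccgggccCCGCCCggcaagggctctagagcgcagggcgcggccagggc

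The shared start of Col4a1 and Col4a2 held 1 GC box, that of Col7a1 1 GC box at 64% G and C, that of Col5a3 2 GC boxes and 1 CCAAT box at 68.7%, and that of Col6a3 neither at 62.7%. In windows from 250 bases before to 50 bases after a start, a GC box stood in 20 of the 35 collagen starts (57.1%) and in 35.7% of the 32851 starts of the table. A CCAAT box stood in 12 of 35 (34.3%) and in 37.4%. The heat shock element GAANNTTCNNGAA, searched on both strands, stood in 0 of 35 collagen windows and in 0.603% of all windows. These matches are a description of the letters and were not tested for binding.

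The first question was how collagen transcripts differed between CHIP null and wildtype fibroblasts without heat. In the 30 min set 8 collagen probes were higher and 15 lower in the CHIP null controls, 23 of the 46 tested at an adjusted p of 0.05 by limma, where 29.3% of all 19358 probes were called (13.7% higher and 15.6% lower). In the 240 min set 14 were higher and 10 lower, 24 of 46, where 10.6% of all probes were called (4.14% higher and 6.45% lower). Over the 31 probes above background on every array 19 were called at 30 min, beside 37.5% of all such probes, and 20 at 240 min, beside 11.9%. The median difference of the 46 probes was -0.07 at 30 min and -0.01 at 240 min, with all probes at medians close to 0 and at -0.01. The direction at 30 min depended on the scaling: with median centring 12 were higher and 7 lower, and with the Feature Extraction ratio 12 and 13. Of all probes 3458 were called with median centring, 67.5% of them higher, and 5804 with that ratio, 49.5% of them higher.

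Col7a1, the chain of the anchoring fibrils, showed opposite differences in the sets. In the 30 min set its level was -0.32, -0.25 and -0.30 in CHIP null controls, against 0.46, 0.49 and 0.69 in wildtype controls. At 240 min it was -0.17, 0.04 and -0.10 in CHIP null controls, against -0.82, -0.67 and -0.72 in wildtype controls. All CHIP null arrays lay below the wildtype arrays at 30 min and above them at 240 min, with no overlap in either set. The difference was -0.84 ± 0.084 (log2, SE, n = 3 against 3, limma adjusted p = 3.44e-09) at 30 min and 0.66 ± 0.084 (adjusted p = 9.45e-07) at 240 min. Heated cells gave -1.01 ± 0.084 at 30 min and 0.65 ± 0.084 at 240 min. With slide as a block the differences of the controls were -0.55 and 0.61 and still called, as they were with median centring and the Feature Extraction ratio. A bulk culture cannot tell fewer cells of a type from less RNA per cell, here or in the results below.

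The chains of the common basement membrane network, Col4a1 and Col4a2, turned the same way as Col7a1. By its brighter probe, Col4a1 was at -0.46, -0.38 and -0.53 in the CHIP null controls of the 30 min set, against -0.09, -0.16 and -0.01 in wildtype controls. At 240 min it was at -0.60, -0.35 and -0.57 in CHIP null controls, against -0.92, -0.90 and -0.80 in wildtype controls. The CHIP null arrays again lay below the wildtype arrays in the 30 min set and above them in the 240 min set. The differences were -0.37 ± 0.073 (SE, limma adjusted p = 0.000225) and 0.37 ± 0.073 (adjusted p = 0.000655), and the other probe of Col4a1 gave -0.28 and 0.28. Col4a2 differed by -0.19 and 0.25 with one probe and by -0.23, which was not called, and 0.31 with the other. The fall of Col4a1 at 30 min was not called with median centring (-0.13, adjusted p = 0.495), nor was either difference with slide as a block (-0.21 and 0.36). That of Col4a2 at 30 min was 0.02 with median centring.

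The minor type IV chains behaved differently from Col4a1 and Col4a2. Col4a6, a chain of smooth muscle and some epithelial basement membranes, stood at -0.20, -0.05 and 0.09 in CHIP null controls at 30 min, against 1.09, 0.90 and 0.87 in wildtype controls, and at -0.09, -0.08 and -0.06 in CHIP null controls at 240 min, against 0.20, -0.01 and 0.27 in wildtype controls. The CHIP null arrays were the lower ones in both sets, with differences of -1.01 ± 0.075 (SE, limma adjusted p = 6.42e-12) and -0.23 ± 0.075 (adjusted p = 0.0429). The 240 min difference lost its call with slide as a block, with median centring, with the Feature Extraction ratio and without any 1 of 5 of the 6 arrays. A second tested probe of Col4a6, above background on part of the arrays, gave 0.14 and -0.04, neither called. Col4a6 and its neighbour Col4a5 lie on the X chromosome. Xist, the RNA of the inactive X chromosome, was above background on 0 of the 6 wildtype arrays of the 30 min set. It was above background on all 18 arrays of the other groups. By its brightest probe Xist differed between the genotypes by 1.80 in controls at 30 min and by 0.03 at 240 min. Between the wildtype controls of the sets it differed by 1.49 (240 less 30 min). The difference in Xist thus cannot be told apart from genotype at 30 min, nor from set in comparisons of wildtype cells between sets. Its part in the differences of Col4a6 and of the other collagen probes, above, here and below, was not tested. Col4a5 (-0.13 and -0.02) and Col4a4 (-0.07 and -0.07), chains of the kidney and other specialised basement membranes, did not pass the test in the controls. In all, 0 basement membrane probes were higher and 4 lower at 30 min, and 4 were higher and 1 lower at 240 min, of 8 tested.

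**Figure D1:**
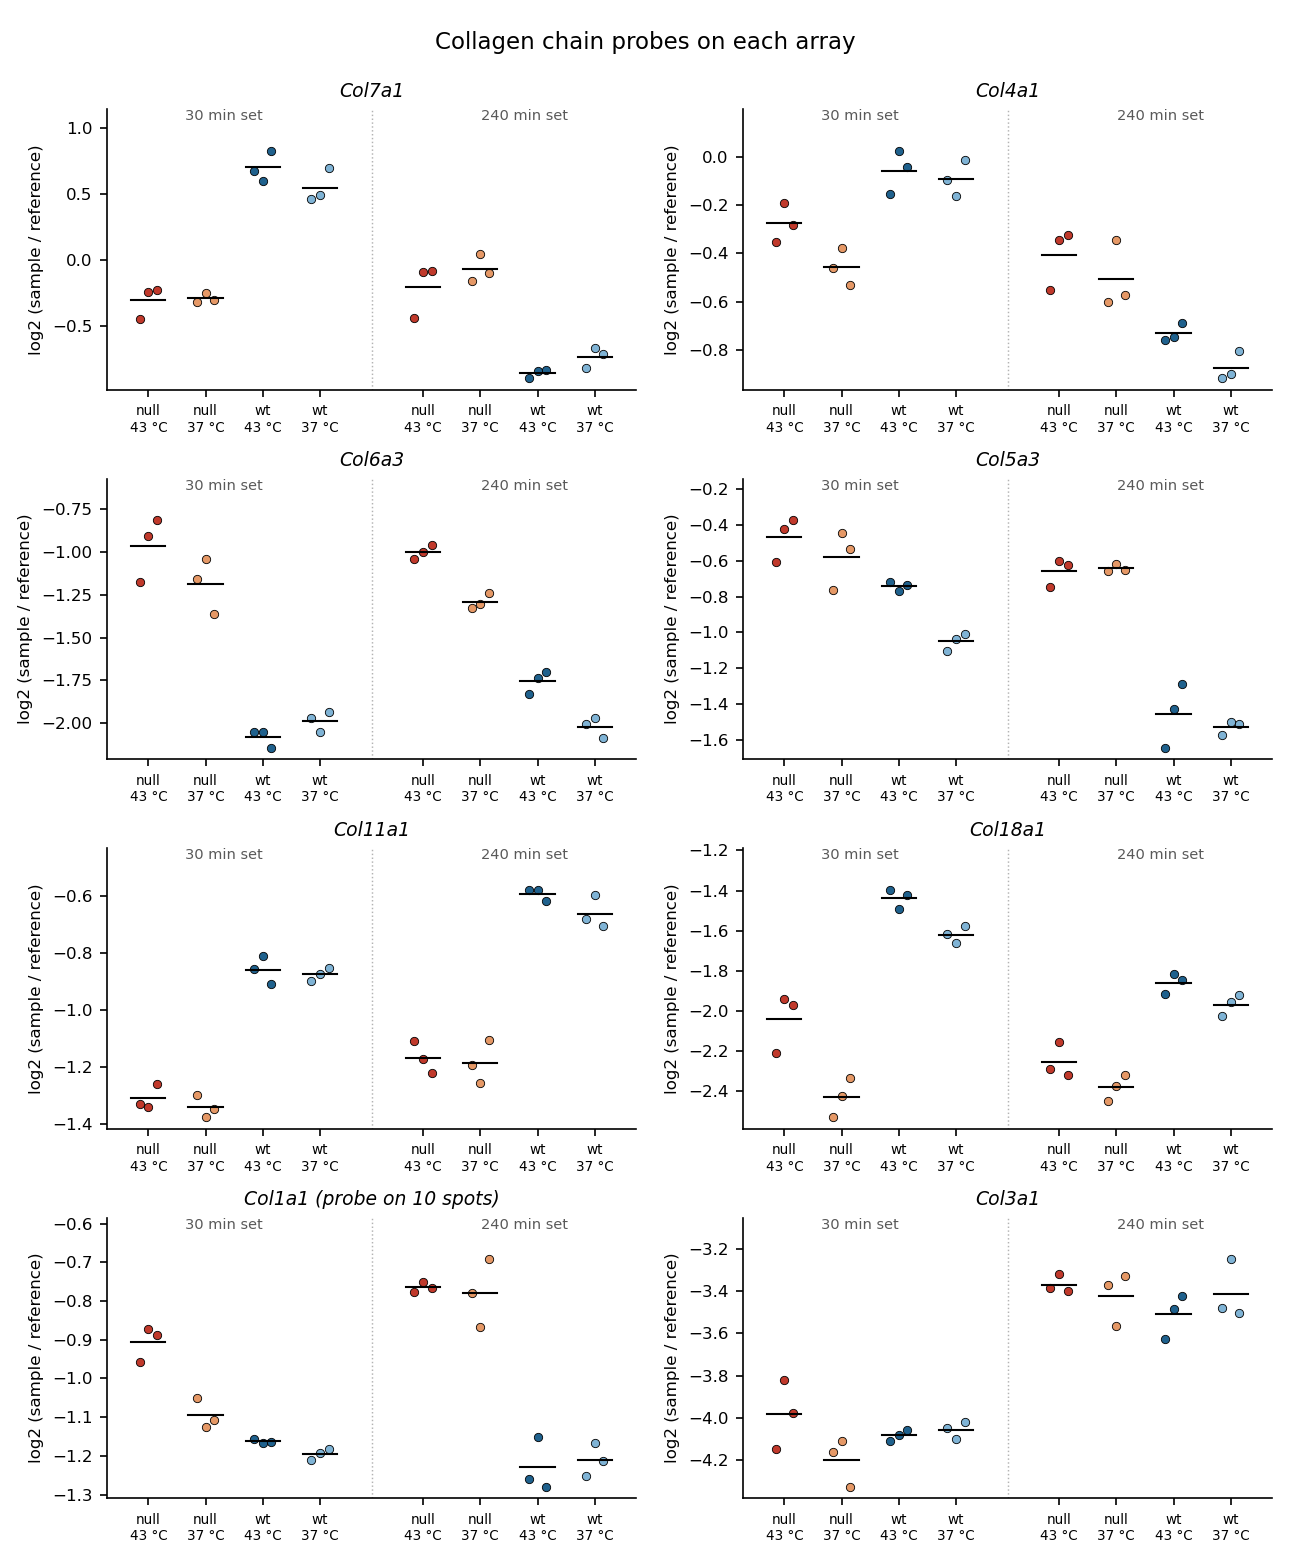
Log2 ratio of sample to common reference (vertical axis) on each of the 24 arrays for 8 collagen probes, with CHIP null left of wildtype and 43 °C left of 37 °C within each set; points are arrays and bars are group means. Col7a1 and Col4a1 lie lower in CHIP null cells in the 30 min set and higher in the 240 min set, Col6a3 and Col5a3 lie higher and Col11a1 and Col18a1 lower in both, and the CHIP null and wildtype controls of Col3a1 differed by -0.14 and -0.01, neither called.

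Type VI chains were higher in CHIP null cells. Col6a3, the largest chain of the microfibrils, was at -1.16, -1.04 and -1.36 in CHIP null controls of the 30 min set, against -1.97, -2.05 and -1.93 in wildtype controls. At 240 min it was at -1.33, -1.31 and -1.24 in CHIP null controls, against -2.00, -1.97 and -2.09 in wildtype controls. The genotypes did not overlap in either set, and the differences were 0.80 ± 0.076 (SE, limma adjusted p = 1.35e-09) and 0.73 ± 0.076 (adjusted p = 2.81e-08). A second Col6a3 probe, above background on part of the arrays, gave 0.13 and 0.14, neither called, so the size of the difference depended on the probe. Col6a1 rose by 0.41 at 30 min and stood at 0.04 at 240 min, which was not called. Col6a2 rose by 0.80 ± 0.078 and 0.31 ± 0.078 with one probe, and by 0.46 and 0.05, the second value not called, with the other. The 3 type VI genes thus all had a called probe at 30 min. At 240 min Col6a2 kept its call with 1 of 2 probes, and with slide in the fit that call was lost (0.12, with an adjusted p of 0.783).

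Among the fibrillar chains, those of types I and V were higher and those of types II and XI lower in CHIP null controls wherever they were called. Col5a3, a minor chain of type V, stood at -0.76, -0.45 and -0.53 in CHIP null controls at 30 min, against -1.10, -1.04 and -1.01 in wildtype controls, and at -0.65, -0.62 and -0.65 in CHIP null controls at 240 min, against -1.57, -1.50 and -1.51 in wildtype controls. Every CHIP null array was above every wildtype array of its set, by 0.47 ± 0.078 (SE, limma adjusted p = 2.22e-05) and 0.89 ± 0.078 (adjusted p = 9.31e-10), or 0.70 and 0.60 with slide as a block. The main type V chains Col5a1 and Col5a2 gave 0.16 and -0.07 at 30 min, not called, and rose by 0.37 and 0.38 at 240 min. Those calls were lost with slide as a block (0.32 and 0.33).

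Type I collagen, the main collagen of skin and bone, is made of Col1a1 and Col1a2 chains. The Col1a1 probe that the array repeats on 10 spots stood at -0.78, -0.87 and -0.69 in CHIP null controls at 240 min, against -1.25, -1.17 and -1.21 in wildtype controls, with no overlap. It rose by 0.43 ± 0.055 (SE, limma adjusted p = 9.54e-07) there and gave 0.10 at 30 min, which was not called. The other Col1a1 probes gave 0.33 and 0.22 at 30 min, both called, and 0.28 and 0.18 at 240 min, of which the first was called. The SD among the 10 spots of an array was 0.0227 to 0.134, against 0.00262 to 0.0867 among the arrays of a group. Col1a2 rose by 0.55 at 240 min and gave 0.12 at 30 min with a probe that had no value on 1 wildtype control array of the 30 min set, and its second probe gave 0.01 and -0.02. With slide as a block none of the type I probes was called in the controls, and the adjusted p of the 10-spot probe was 0.0719 at a difference of 0.34. Col3a1, the chain of reticular fibres, gave -0.14 and -0.01 with its brighter probe and 0.06 and 0.10 with the other, with 0 calls.

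Col11a1, a chain of the thin fibrils of cartilage, was lower in CHIP null cells by its brighter probe in all 4 genotype comparisons. It stood at -1.30, -1.38 and -1.35 in CHIP null controls at 30 min, against -0.90, -0.87 and -0.85 in wildtype controls. At 240 min it stood at -1.19, -1.26 and -1.11 in CHIP null controls, against -0.68, -0.60 and -0.71 in wildtype controls. The groups did not overlap, and the differences were -0.47 ± 0.055 (SE, limma adjusted p = 9.01e-08) and -0.53 ± 0.055 (adjusted p = 3.18e-08). With slide as a block they were -0.42 and -0.55, both called, and the dimmer probe gave -0.22 and -0.38. Col2a1, the chain of cartilage fibrils, fell with a difference of -0.30 ± 0.094 and -0.89 ± 0.094 with its single-spot probe and with -0.25 and -0.54 with the probe on 10 spots. At 30 min neither Col2a1 call held with slide as a block or median centring, and the 10-spot probe then gave 0.08 and 0.01. Of 9 chondrocyte markers 5 were tested, with Sox5 and Matn1 above background on no array, and of these 1 was higher (Acan) and 2 were lower (Sox9 and Sox6) at 30 min, and 0 were higher and 1 lower (Sox6) at 240 min. The mean level of these markers per array was -0.73 to -0.71 in CHIP null controls and -0.66 to -0.60 in wildtype controls at 30 min, and -1.18 to -1.05 in CHIP null and -1.02 to -0.84 in wildtype controls at 240 min. Their part in the falls of Col2a1 and Col11a1 was not tested.

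Of the remaining chains, Col18a1, a vascular and epithelial basement membrane collagen whose end is released as endostatin, stood at -2.53, -2.42 and -2.33 in CHIP null controls at 30 min, against -1.62, -1.66 and -1.58 in wildtype controls, and at -2.45, -2.38 and -2.32 in CHIP null controls at 240 min, against -2.02, -1.96 and -1.92 in wildtype controls. The CHIP null arrays were all lower, with differences of -0.81 ± 0.067 and -0.41 ± 0.067 (SE, limma adjusted p = 8.43e-11 and 5.2e-05). Its second probe gave -0.47 and -0.29. Col8a1, a chain of the network beneath some endothelia, fell with a difference of -0.50 at 30 min and gave -0.03 at 240 min, while its other probe gave -0.09 and 0.09. Its partner chain Col8a2 gave -0.05 at 30 min and fell with a difference of -0.33 at 240 min.

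The FACIT chains moved in both directions. Col12a1, which coats type I fibrils of tendon and skin, rose by 0.47 ± 0.078 and 0.41 ± 0.078 (limma adjusted p = 1.75e-05 and 0.000401). Col14a1, a related chain of mature fibrils, fell with a difference of -0.42 ± 0.094 and -0.51 ± 0.094, with a probe that was not above background on all arrays. Col22a1, a chain of tissue junctions, fell at 30 min with both tested probes (-0.26 and -0.25) and Col9a3, of cartilage fibrils, fell at 240 min (-0.31). Col16a1 (0.13 and 0.16) was not called. The FACIT counts were 1 higher and 3 lower at 30 min and 1 higher and 2 lower at 240 min, of 8 tested.

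**Figure D2:**
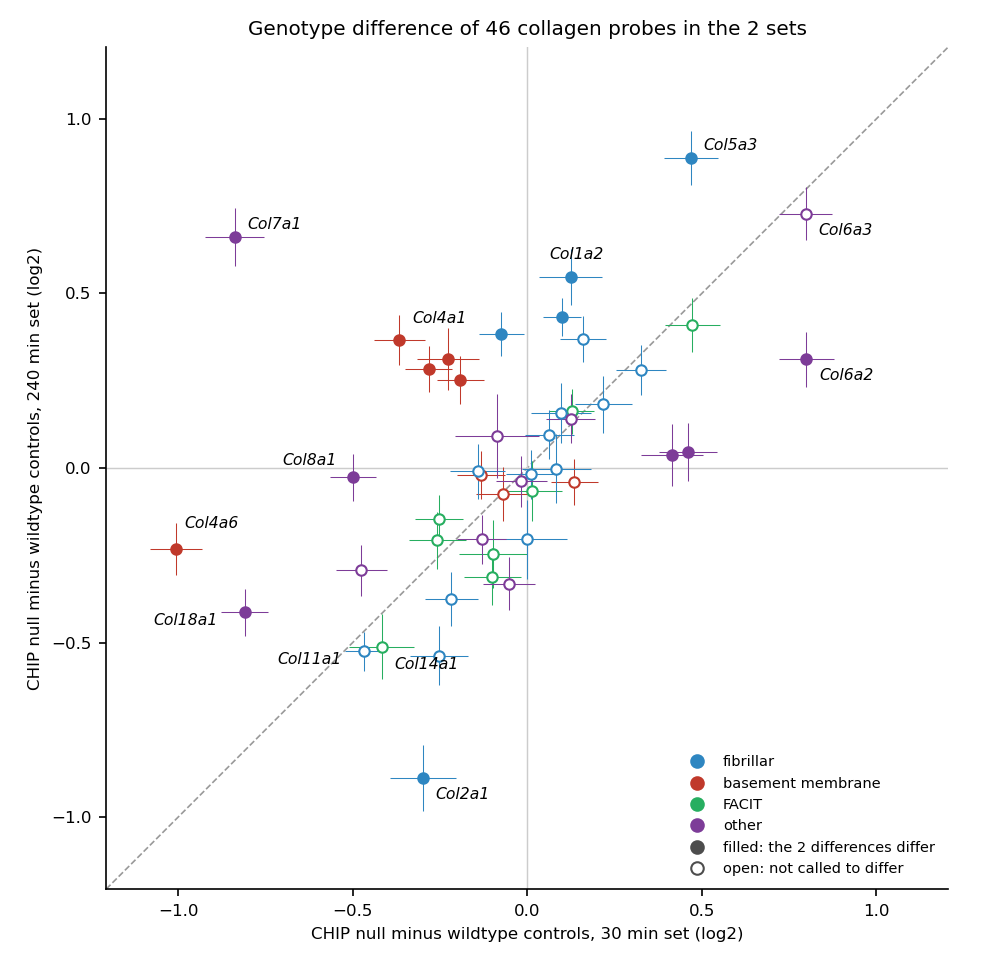
CHIP null minus wildtype controls for the 46 tested collagen probes, in the 30 min set (horizontal axis, log2) and the 240 min set (vertical axis, log2); bars are 1 SE, colours are the 4 classes, the dashed line marks equal differences, and filled points are the 16 probes whose differences differed by limma at an adjusted p of 0.05. Col7a1 and the Col4a1 and Col4a2 probes lie in the upper left, and Col6a3, Col11a1 and Col14a1 lie near the line.

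Whether the genotype differences of the controls themselves differed between the sets was tested as a contrast chosen after the data were seen. It was called for 16 of the 46 collagen probes, of 13 genes (12 positive and 4 negative). Of all probes 14.5% were called (7.1% positive and 7.39% negative). Among the called collagen probes, both of Col4a1, 1 of Col4a2 and that of Col7a1 had called differences of opposite sign in the sets. The share of all probes with such opposite calls was not counted. For Col7a1 the change was 1.50 ± 0.12 (SE, adjusted p = 1.09e-10), for Col4a1 0.73 and 0.57, and for Col4a6 0.77. The second tested probe of Col4a6 pointed the other way and was not called. Of type VI, Col6a1 moved the other way (-0.38), as did Col6a2, at -0.41 and -0.49. Col6a3 (-0.07), Col11a1 (-0.06) and Col12a1 (-0.06) were not called. No FACIT probe was called (0 of 8), beside 5 of 8 basement membrane probes, 5 of 17 fibrillar probes and 6 of 13 others. As set and time cannot be told apart, this contrast compares sets of cultures and arrays as much as times. The wildtype controls of the 2 sets also differed in Xist, and its part was not tested.

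Smooth muscle markers also turned between the sets, and markers of other cells were read in the same comparisons. Of the 4 smooth muscle markers, all above background, 0 were higher and 3 lower in CHIP null controls at 30 min, and 2 were higher and 0 lower at 240 min. Their mean level per array was 1.77 to 1.90 in CHIP null and 2.08 to 2.17 in wildtype controls at 30 min, and 1.25 to 1.37 in CHIP null and 1.04 to 1.07 in wildtype controls at 240 min. Cnn1, a contractile protein, differed by -0.59 and 0.69, in the same directions as Col4a1 and Col7a1. The 9 fibroblast markers gave 5 higher and 1 lower at 30 min and 3 higher and 2 lower at 240 min, with array means of -0.94 to -0.83 in CHIP null and -1.18 to -1.11 in wildtype controls at 30 min and -0.90 to -0.50 in CHIP null and -0.86 to -0.67 in wildtype controls at 240 min. Their matrix proteoglycans Dcn (1.16 and -1.04) and Lum (0.65 and -1.18) turned in the opposite sense. For the 9 fibroblast markers the change of the genotype difference between sets was called positive for 2 and negative for 3, with a median of -0.09. Of all probes 7.1% were called positive and 7.39% negative. All 7 tested macrophage markers, of 8 with Ptprc above background on no array, were lower in CHIP null controls at 30 min, where their array means were -1.44 to -1.33 in CHIP null and -0.28 to -0.25 in wildtype controls. At 240 min 0 were higher and 3 lower, with array means of -2.03 to -1.94 in CHIP null and -1.59 to -1.48 in wildtype controls. Of the markers of further cell types, endothelial ones gave 0 higher and 2 lower in each set (3 of 6 tested, Pecam1 and Tek above background on no array), and epithelial ones 0 and 1 at 30 min and 0 and 3 at 240 min (6 of 6 tested). Skeletal muscle markers gave 0 and 1 and then 0 and 4 (5 of 5 tested), and osteoblast markers 1 and 1 and then 0 and 0 (4 of 6 tested, Dmp1 on none). The part of these cells in the collagen differences was not tested.

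Heated cells of the 2 genotypes were compared next. In the 30 min set 14 collagen probes were higher and 9 lower in heated CHIP null cells, 23 of 46 with 22.9% of all probes called (12.3% higher and 10.6% lower), and with median centring the counts were 7 and 6. The Feature Extraction ratio gave 12 and 12. Of all probes 1735 were called with median centring (29.6% of them higher) and 6683 with that ratio (48.6% higher). In the 240 min set 14 were higher and 7 lower, 21 of 46 with 10.1% of all probes called (3.78% higher and 6.3% lower), and with median centring, which set the median of all probes at -0.11 in place of -0.01, 3 were higher and 9 lower. Median centring called 1349 of all probes in the 240 min set, 8.45% of them higher. Over the 31 probes above background on every array 21 were called at 30 min, beside 31.2% of all such probes. At 240 min 19 were called, beside 12.6%. In these heated cells Col6a3 rose by 1.11 ± 0.076 and 0.75 ± 0.076 and Col5a3 by 0.27 and 0.80, of which the 30 min value was not called with median centring (0.23). Col6a1 rose by 0.61 at 30 min and Col6a2 by 0.46 and 0.82 with its probes, while none of these was called at 240 min (0.25, 0.03 and 0.21). Col7a1 stood at -0.45, -0.24 and -0.23 in heated CHIP null cells, against 0.67, 0.60 and 0.82 in heated wildtype cells, at 30 min, and at -0.44, -0.09 and -0.09 in heated CHIP null cells, against -0.90, -0.84 and -0.83 in heated wildtype cells, at 240 min, without overlap in either set, as in the controls. Col4a1 gave -0.22 and 0.33 with its brighter probe, both called, and Col4a2 -0.04, not called, and 0.39. Lower chains included Col11a1 (-0.45 ± 0.055 and -0.58 ± 0.055) and Col18a1 (-0.60 and -0.40) in both sets. At 30 min Col4a6 (-1.20), Col4a5 (-0.43) and both probes of Col8a1 (-0.47 and -0.45) were lower too, and at 240 min Col9a3 (-0.29). Over both temperatures and both sets, a probe each of Col1a1, Col5a3, Col6a3 and Col12a1 was called higher in all 4 comparisons. A probe of Col11a1 and both of Col18a1 were called lower in all 4. The share of all probes with such calls was not counted, so nothing is read from the number of these probes.

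Col1a1 was higher in heated CHIP null than in heated wildtype cells. All 3 Col1a1 probes were called in both sets, with 0.41, 0.26 and 0.24 at 30 min and 0.41, 0.47 and 0.28 at 240 min. Col1a2 rose by 0.49 at 240 min with one probe and gave 0.05 with the other, not called. At 30 min the first probe had a value on 1 of the 3 heated wildtype arrays, so that nothing is read from it there, and the second gave 0.04, not called. No Col1a1 probe kept its call once slide entered the fit (0.30 and 0.32 for the 10-spot probe, with adjusted p-values of 0.0589 and 0.116). Of type V, Col5a2 rose by 0.19 and 0.31, and Col5a1 by 0.32 at 240 min. Col12a1 rose by 0.44 and 0.24, and Col16a1, which was not called in the controls, by 0.30 at 30 min. Probes lower in the controls and not called in heated cells at 30 min were those of Col2a1 (0.13 and -0.05), Col14a1 (-0.16) and Col22a1 (-0.11 and -0.14), with 1 probe each of Col4a1 (-0.12), Col4a2 (-0.04) and Col11a1 (0.11). At 240 min Col2a1 and Col14a1 were called lower (-0.40 and -0.60 for Col2a1, -0.56 for Col14a1). Across the 4 genotype comparisons 8 of the 31 tested genes had no call, Col3a1, Col4a4, Col9a1, Col9a2, Col11a2, Col15a1, Col17a1 and Col27a1, with estimates between -0.25 (Col9a1) and 0.14 (Col3a1).

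The second question was how heat changed collagen transcripts within a genotype. In CHIP null cells 26 collagen probes were higher and 1 lower after heat in the 30 min set, 27 of 46 with 30.6% of all probes called (18.8% higher and 11.9% lower). In the 240 min set 16 were higher and 0 lower, 16 of 46, with 35.1% of all probes called (20.9% higher and 14.2% lower). In wildtype cells 4 were higher and 1 lower at 30 min, with 11.2% of all probes called (5.22% higher and 5.99% lower), and 8 were higher and 0 lower at 240 min, with 28.5% called (16.3% higher and 12.2% lower). Over the 31 probes above background on every array 18 and 8 were called in the CHIP null at 30 and 240 min, and 5 and 4 in the wildtype. Of all probes above background on every array, 36.4% and 41.3% were called in the CHIP null and 16.2% and 36.7% in the wildtype. The collagen share was above that of all probes in the CHIP null at 30 min, and near or below it in the other 3 comparisons.

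These directions rested on the scaling. With median centring 1 collagen probe was higher and 6 lower in the CHIP null at 30 min, and 0 and 5 at 240 min. In the wildtype 1 was higher and 1 lower at 30 min, and 0 and 0 at 240 min. Of all 19358 probes 6749 and 6717 were then called in the CHIP null, of which 0.948% and 0.357% were higher. In the wildtype 696 and 2688 were called, of which 4.02% and 3.76% were higher. The median of all probes then stood at -0.15 and -0.17 in the CHIP null and at -0.08 and -0.04 in the wildtype, in place of 0.02, 0.06, 0.01 and 0.05. The median of the collagen probes lay above that of all probes under either scaling, at -0.07 and -0.10 in the CHIP null and -0.02 and 0.03 in the wildtype with median centring, and at 0.22, 0.16, 0.11 and 0.13 with loess. Macrophage markers, 7 tested, gave 2 higher and 1 lower and 5 higher and 0 lower after heat in the CHIP null at 30 and 240 min, and 0 higher and 6 lower and 1 higher and 0 lower in the wildtype. Their part in the heat differences was not tested. Heat differences of single chains are given below with loess.

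**Figure D3:**
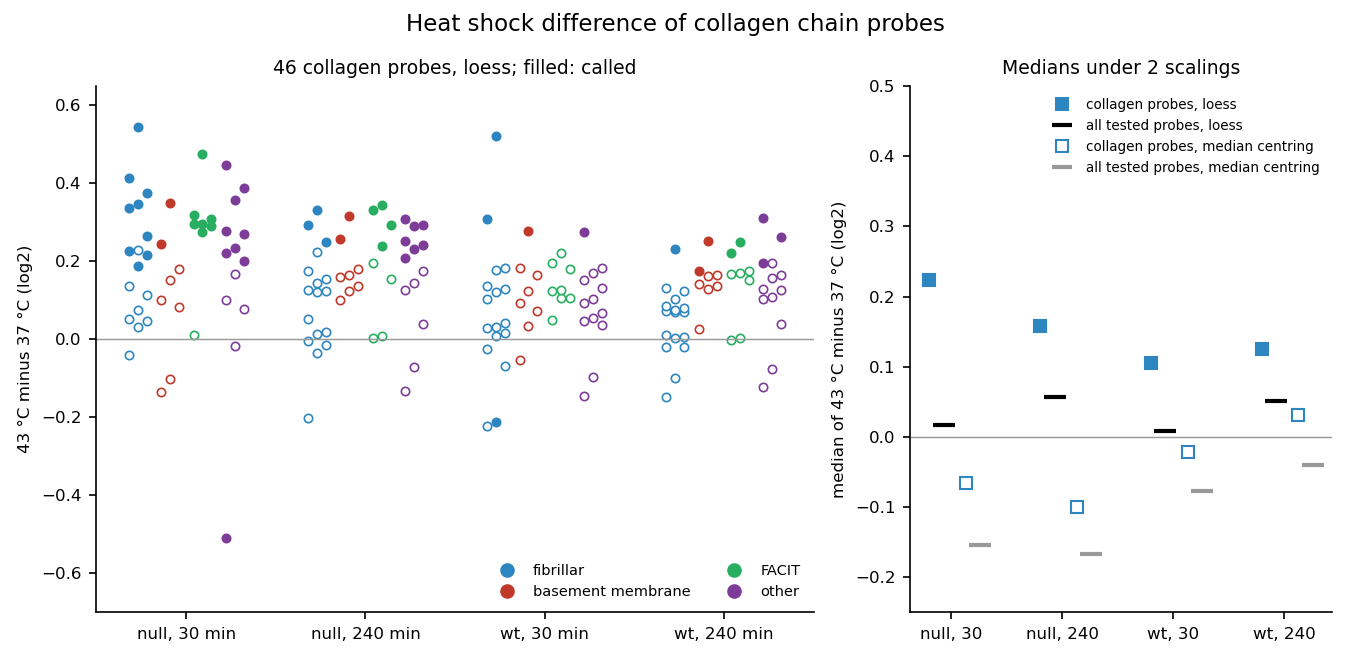
Left, heated minus control cells (log2) for the 46 tested collagen probes in the CHIP null and wildtype at 30 and 240 min, coloured by class, with filled points called by limma at an adjusted p of 0.05; right, the median of the collagen probes (squares) and of all tested probes (bars) under loess and under median centring. Most points lie above 0 with loess, and the collagen medians lie above those of all probes under both scalings.

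Col1a1 had a called rise in all 4 heat comparisons by 1 of its 3 tested probes, A_52_P658611, the dimmest of them. Its mean log2 brightness was 6.89, against 10.54 for A_51_P377094 and 13.43 for the probe on 10 spots. In the 30 min set it stood at 1.02, 0.75 and 0.65 in heated CHIP null cells, against 0.25, 0.22 and 0.32 in CHIP null controls, and at 0.44, 0.60 and 0.66 in heated wildtype cells, against 0.05, 0.11 and -0.02 in wildtype controls. At 240 min the level was 0.33, 0.49 and 0.52 in heated CHIP null cells, against -0.02, 0.06 and 0.30 in CHIP null controls, and 0.19, 0.14 and 0.16 in heated wildtype cells, against -0.07, -0.06 and -0.07 in wildtype controls. Heated arrays lay above the controls in each of the 4 comparisons. The rises were 0.55 ± 0.081 and 0.33 ± 0.081 in the CHIP null (SE, limma adjusted p = 2.29e-05 and 0.00271) and 0.52 ± 0.081 and 0.23 ± 0.081 in the wildtype (adjusted p = 0.00013 and 0.0323). At 240 min they were not called with slide as a block (0.14 in the CHIP null and 0.26 in the wildtype) or with median centring (0.03 and 0.09), and the wildtype call at 240 min was lost without any 1 of the 6 arrays.

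The other Col1a1 probes, both brighter, did not show a rise of that size. The probe on 10 spots rose by 0.19 in the CHIP null at 30 min, where the Feature Extraction ratio gave -0.18 and the authors' deposited table -0.25. It gave 0.01, 0.03 and -0.02 in the other comparisons, none called. Probe A_51_P377094, which had no value on 1 heated CHIP null array at 240 min, gave 0.27 and 0.25 in the CHIP null, both called, and 0.18 and 0.12 in the wildtype. The probes of this gene thus differed by as much as the heat difference itself. The stretch of transcript that each probe reads was not analysed here.

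**Figure D4:**
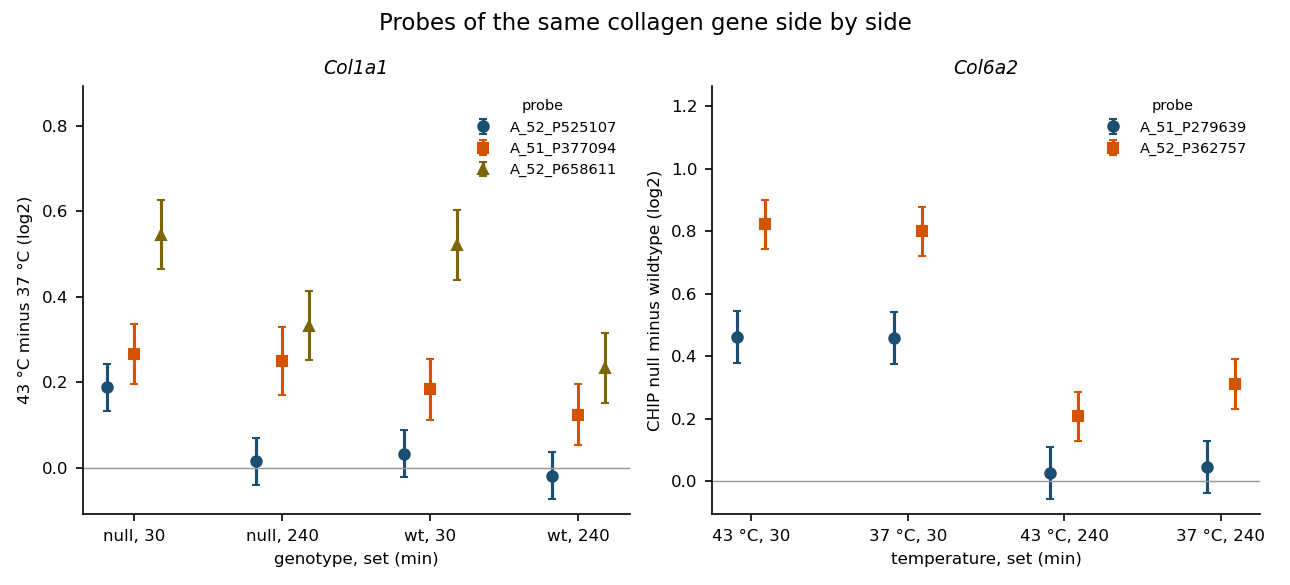
Left, heated minus control cells (log2) for the 3 tested Col1a1 probes in the CHIP null and wildtype at 30 and 240 min; right, CHIP null minus wildtype cells (log2) for the 2 Col6a2 probes at 43 and 37 °C in both sets; points are limma estimates and bars 1 SE. The Col1a1 probe A_52_P658611 lies above the others in all 4 comparisons, and both Col6a2 probes give larger differences at 30 than at 240 min.

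Other fibrillar chains moved less evenly. In the CHIP null at 30 min Col2a1 rose by 0.41 ± 0.084 and 0.37 ± 0.094 with its probes, Col5a1 by 0.35 with 1 of 2 probes, Col1a2 by 0.23, Col11a1 by 0.34 with its dimmer probe and Col3a1 by 0.22. The Col1a2 value was -0.23 with the Feature Extraction ratio and was lost without any 1 of 3 of the 6 arrays. At 240 min Col2a1 rose by 0.29 in the CHIP null with 1 probe. In the wildtype at 30 min Col5a3 rose by 0.31 ± 0.078 and Col5a2 changed by -0.21 ± 0.064 (limma adjusted p = 0.00964 and 0.0289). Neither was called with slide as a block (0.27 and -0.15).

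In the FACIT group 7 of 8 probes rose in the CHIP null at 30 min and 4 at 240 min, beside 0 and 2 in the wildtype. Of all probes 18.8% and 20.9% were higher in the CHIP null at 30 and 240 min and 5.22% and 16.3% in the wildtype. Col14a1 rose by 0.47 ± 0.094 (limma adjusted p = 0.000428) in the CHIP null at 30 min and by 0.25 in the wildtype at 240 min. Col9a2, of cartilage fibrils, rose by 0.32 and 0.34 in the CHIP null. Its partner Col9a3 was above background on 0 CHIP null control arrays and 1 heated array of the 30 min set and was called higher after heat (limma adjusted p = 0.00508), with no fold given for so dim a probe. Col22a1 rose by 0.29 and 0.33 in CHIP null cells, Col16a1 by 0.30 at 30 min, and Col12a1 (0.01 and 0.01) was not called.

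Basement membrane chains gave 2 higher of 8 probes in the CHIP null in each set, and 1 and 2 in the wildtype, where 18.8% and 20.9% of all probes were higher in the CHIP null and 5.22% and 16.3% in the wildtype. Col4a1 rose by 0.35 with its dimmer probe in the CHIP null at 30 min and by 0.18 in the wildtype at 240 min, Col4a4 by 0.24 and 0.32 in the CHIP null, and Col4a5 by 0.25 in the wildtype at 240 min. Col4a6 rose by 0.26 in the CHIP null at 240 min and, by its other probe, by 0.28 in the wildtype at 30 min. Col4a2 was called in none of the 4 heat comparisons, with values between -0.05 and 0.16.

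Of the other chains Col6a3 rose by 0.22 and 0.29 ± 0.076 in CHIP null cells and by 0.26 ± 0.076 in the wildtype at 240 min, and gave -0.10 there at 30 min. Col6a2 had 1 of its 2 probes called each time, A_51_P279639 at 30 min and A_52_P362757 at 240 min. The values were 0.28 and 0.21 in CHIP null cells and 0.28 and 0.31 in wildtype cells. Col18a1 rose by 0.39 ± 0.067 and 0.45 ± 0.072 in the CHIP null at 30 min, and Col17a1, of the hemidesmosome, by 0.36 and 0.29 at 30 and 240 min. Col8a2 rose by 0.27 and 0.31 in CHIP null cells and by 0.19 in the wildtype at 240 min. The single fall in the CHIP null was Col8a1 by probe A_52_P292792 (-0.51 ± 0.12), which was 0.04 with the Feature Extraction ratio and -0.13 with slide as a block, while its other probe gave 0.10. Heat gave no call for Col7a1 (-0.02 and -0.13 in the CHIP null, 0.15 and -0.12 in the wildtype).

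Whether heat acted differently in the 2 genotypes was tested as an interaction. No collagen probe passed at 30 min (0 of 46, beside 0.212% of all probes, 0.186% higher and 0.0258% lower) or at 240 min (0 of 46, beside 0%), although the counts of heat calls differed. At an unadjusted p under 0.05 there were 12 of 46 (26.1%) at 30 min, beside 10.9% of all probes, and 2 of 46 (4.35%) at 240 min, beside 3.36%. The counts at an adjusted p of 0.05 were 0 in both sets under each alternative processing and block. Leaving out the first heated CHIP null array of the 30 min set gave 2 calls at 30 min. The interaction estimate of Col2a1 at 30 min was 0.38 ± 0.12 (SE, adjusted p = 0.217) with its 10-spot probe.

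The controls of the 2 sets were compared within each genotype, a contrast of time and set together. Xist differed as well, by 1.49 in wildtype and -0.28 in CHIP null controls by its brightest probe, and its part was not tested. In CHIP null controls 8 collagen probes were higher and 20 lower in the 240 than in the 30 min set, with 47.4% of all probes called (21.9% higher and 25.5% lower), and with the Feature Extraction ratio 7 and 6. In wildtype controls 5 were higher and 25 lower, with 61% of all probes called (30.3% higher and 30.7% lower). The Feature Extraction ratio gave 9 higher and 15 lower there, and median centring 9 and 17. Of all probes that ratio called 3631 in CHIP null controls (53.6% of them higher) and 8099 in wildtype controls (55.2% higher). Median centring called 9548 in wildtype controls, 57.1% of them higher. The median of the collagen probes was -0.12 in CHIP null and -0.26 in wildtype controls. The share of collagen probes called was 60.9% in CHIP null and 65.2% in wildtype controls. Over the 31 probes above background on every array it was 54.8% (17 probes) in CHIP null and 58.1% (18 probes) in wildtype controls. Of all such probes 46.5% and 64.1% were called, so that the collagen share was the lower one in wildtype controls. Col7a1 was higher at 240 min in CHIP null controls (0.22 ± 0.084) and lower in wildtype controls (-1.28 ± 0.084). Col4a1 gave -0.05, not called, with its brighter probe and -0.27, called, with the other in CHIP null controls, against -0.78 and -0.84 in wildtype controls. Col4a2 gave -0.40 in CHIP null and -0.84 in wildtype controls. Col3a1 was higher at 240 min in both by its brighter probe, by 0.78 ± 0.079 in CHIP null and 0.64 ± 0.079 in wildtype controls. Its other tested probe, above background on part of the arrays, did not rise. In CHIP null controls it stood at -0.37, -0.34 and -0.26 at 240 min, against -0.24, -0.16 and -0.23 at 30 min. In wildtype controls it stood at -0.49, -0.34 and -0.43 at 240 min, against -0.35, -0.19 and -0.28 at 30 min. Col17a1 was lower in both with loess (-0.82 and -0.75), by a probe above background on 13 of the 24 arrays. With the Feature Extraction ratio its direction was the opposite, at 0.20 in CHIP null and 1.22 in wildtype controls (limma adjusted p = 0.687 and 0.0031). More collagen probes were above background on arrays of the 240 min set (43 to 49) than of the 30 min set (33 to 42). The 2 sets shared no slide, so no block by slide could be fitted here.

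The genes that make, process and bind collagen were read from a list of 40, of which 39 had a probe and 35 were tested by their brightest probe; Colgalt2, Adamts3 and Itga2 were above background on no array. Relative to wildtype cells, CHIP null controls had 9 higher and 6 lower at 30 min and 13 higher and 1 lower at 240 min, and heated CHIP null cells 11 higher and 4 lower and 11 higher and 0 lower. Of all probes, 13.7% were higher and 15.6% lower in the controls at 30 min and 4.14% and 6.45% at 240 min, and in heated cells 12.3% were higher and 10.6% lower at 30 min and 3.78% and 6.3% at 240 min. The median difference of the list was 0.10 and 0.14 in controls and 0.08 and 0.10 in heated cells, where the medians of all probes lay between -0.01 and 0.02. Serpinh1, the collagen chaperone, gave 0.14 at 30 min and rose by 0.24 ± 0.073 at 240 min in the controls. Itga11, a subunit of a collagen receptor, rose by 1.19 ± 0.083 and 0.94 ± 0.083 (limma adjusted p = 1.78e-12 and 9.95e-10), and Adamts2, which trims the ends of fibrillar procollagens, by 1.39 and 0.56. P4ha2, a prolyl hydroxylase subunit, rose by 0.23 and 0.54. Plod2, a lysyl hydroxylase, fell by 0.62 and 0.24 on the log2 scale. The collagen receptors Ddr1 (-0.89) and Itgb1 (-0.42) were lower at 30 min and not called at 240 min (-0.16 and 0.13). Bmp1, the protease that releases the ends of procollagen, and Sparc, a collagen-binding matrix protein, had opposite called differences in the sets, -0.21 and 0.52 for Bmp1 and -0.41 and 0.21 for Sparc, as Col4a1 and Col7a1 did.

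With heat the same list gave 10 higher and 3 lower and 8 higher and 3 lower in the CHIP null and 4 higher and 2 lower and 7 higher and 3 lower in the wildtype, at 30 and 240 min, with medians of 0.02, 0.11, 0.09 and 0.07 in that order. Of all probes, 18.8% were higher and 11.9% lower in the CHIP null at 30 min and 20.9% and 14.2% at 240 min, and in the wildtype 5.22% were higher and 5.99% lower at 30 min and 16.3% and 12.2% at 240 min. Serpinh1 was called in none of these (0.13 and 0.10 in the CHIP null, 0.14 and 0.15 in the wildtype). P3h3, a prolyl hydroxylase, rose by 0.47 in the CHIP null and 0.27 in the wildtype at 30 min, and Pcolce2, an enhancer of procollagen processing, rose in all 4 comparisons, by 0.24 and 0.25 in the CHIP null and 0.24 and 0.36 in the wildtype. The collagen receptor Ddr2 and the integrin subunit Itgb1 were lower after heat in all 4. Ddr2 gave -0.40 and -0.38 in the CHIP null and -0.41 and -0.30 in the wildtype, with 0 calls by its second probe, and Itgb1 gave -0.23 and -0.38 in the CHIP null and -0.22 and -0.34 in the wildtype.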

How the data were processed

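RNA of 24 cultures of mouse embryonic fibroblasts, 500 ng each, was hybridised to Agilent whole mouse genome arrays with 2 colours. The scanner files, made with Agilent Feature Extraction 9.1.3.1 per the file headers, hold the deposited Cy5 and Cy3 intensity of each spot with its background. Their log10 ratio of Cy5 over Cy3, dye-normalised per the file headers, was an alternative. The authors' deposited table of processed values, for 28139 probes and 69 of the collagen probes, was set against the scanner files. It held log ratios, with the heated columns given relative to the mean of the 3 controls and a value times the natural log of 2 gave the log10 ratio of the scanner file. Its centring stays unknown. Each of its columns followed the array of the other time label (correlation of at least 0.9996 for controls and 0.9975 for heated cells) and not the array of its own label (at most 0.9004 and 0.2612), and the right label could not be told from the files. The medians of its columns, replicates 1 to 3, were -0.00119, 0.0172 and 0.023 in heated and 0.00967, -0.00608 and -0.00184 in control CHIP null cells and 0.00232, 0.0222 and 0.0209 in heated and 0, 0 and -0.0138 in control wildtype cells at 30 min. At 240 min they were -0.0086, 0.0208 and 0.00894 in heated and -0.0255, -0.0462 and -0.0179 in control CHIP null cells and -0.00539, -0.004 and -0.00562 in heated and -0.0118, -0.0192 and -0.0314 in control wildtype cells.

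Background was corrected with normexp (offset 50) and each array normalised by loess in limma 3.58.1 (R 4.3.3, statmod 1.5.0). Of 43379 spots that are not controls, 333 values with an outlier mark were left out, and spots of a probe were averaged, which left 41174 probes. A probe was kept if some group had it well above background in the sample channel on its 3 arrays (19368), of which 10 had no value in some group, so 19358 were tested. A group-means fit over all 24 arrays (16 residual and 13.2 prior degrees of freedom) gave log2 differences, and p-values were adjusted by Benjamini-Hochberg over all tested probes of a comparison at 0.05. On simulated data of heat in wildtype cells at 30 min, 200 of 19358 probes were changed. Of the changes, 69% of those of 0.3 and 100% of those of 0.8 were recovered, with 7 false calls. In the data 2170 probes were called in that comparison, so these rates hold for the simulated share alone. Correlations between arrays of a group were 0.9776 to 0.9939. The number of arrays limits the precision.

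The collagen genes and the lists were chosen with earlier results of these data known. The named chains were a core set (Col1a1, Col1a2, Col3a1, Col5a1, Col5a2, Col4a1, Col4a2, Col6a1, Col6a2, Col6a3, Col12a1, Col14a1, Col16a1 and Col18a1) and, in each comparison, the called probes with the 4 largest differences per direction and class; of the list of synthesis and receptor genes, Serpinh1 and the 3 largest called differences per direction were named. Probes named otherwise, such as the second probe of a gene or a value set beside another comparison, were chosen after their values were seen. Replicate numbers in the labels did not pair the samples: of 30 pairs with the same number, 11 had a correlation of their deviations over 0.1 (range -0.228 to 0.55), and in 0 of 10 comparisons did all pairs. Alternatives were a normexp offset of 10, median centring, the Feature Extraction ratio, probes above background on all 24 arrays, the brightest probe of a gene, slide and replicate number as blocks, and leaving out each array. Promoter sequences came from RefSeq (GRCm38.p6), and probe sequences were not used here. A further list of markers is not reported here.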

Additional observations from a re-analysis of the deposited data

Results flagged for a closer look

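In 16 collagen probes the difference between CHIP null and wildtype controls itself differed between the 240 and the 30 min set (limma, adjusted p at 0.05, 240 less 30 min), in a contrast chosen after the data were seen. The values were 1.50 for Col7a1, 0.73 and 0.57 for the probes of Col4a1, 0.44 and 0.54 for those of Col4a2, 0.77 for Col4a6, 0.33 for Col1a1, 0.42 for Col1a2, 0.46 for Col5a2, 0.42 for Col5a3, 0.40 for Col18a1 and 0.47 for Col8a1. They were -0.59 for Col2a1, -0.38 for Col6a1 and -0.41 and -0.49 for the probes of Col6a2. Further tested probes of Col4a6, Col1a1, Col1a2, Col2a1, Col18a1 and Col8a1 were not called, and that of Col4a6 pointed the other way. The calls of Col7a1 and Col4a6 held with a normexp offset of 10, median centring, the Feature Extraction ratio, slide and replicate number as blocks and without any 1 array. Those of Col4a1 ended with slide as a block (0.57 and 0.47), and those of Col4a2 with slide as a block (0.21 and 0.28) and with median centring (0.38 and 0.52). With slide as a block the calls of Col5a3 (-0.10, turned in sign), Col18a1 (0.01), Col1a1 (0.16), Col1a2 (0.48), Col5a2 (0.48), Col8a1 (0.56), Col2a1 (-0.73) and 1 probe of Col6a2 (-0.61, A_52_P362757) ended as well. With median centring those of Col18a1 (0.27), Col5a3 (0.37), Col1a1 (0.0056), Col1a2 (0.14), Col5a2 (0.35), Col8a1 (0.30) and Col6a1 (-0.50) ended, with an offset of 10 those of Col1a1 (0.23) and Col1a2 (0.32), and with the Feature Extraction ratio that of Col1a1 (0.32). The call of Col6a1 was also lost without any 1 of 8 of the 12 arrays, and those of Col1a2 and of the other Col6a2 probe (A_51_P279639) without any 1 of 3. The Col1a2 probe had a value on 2 of the 3 wildtype control arrays of the 30 min set. Set and time cannot be told apart in these values. The wildtype controls of the sets also differed in Xist, whose part was not tested.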

How the results depend on the processing

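Of 206 log2 differences of named collagen probes, all kept their call with the replicate number as a block, and 146 of 146 and 129 of 129 that could be compared kept it among probes above background on all arrays and with the brightest probe per gene. With the same direction, calls were lost for 45 with a normexp offset of 10, 84 with median centring, 64 with the Feature Extraction ratio and 95 of 157 with slide as a block, and a further 3, 21, 13 and 3 values in that order changed sign. Leaving out 1 array lost 193 of 1331 and reversed 0. Of 50 heat values set against those the authors deposited, 24 moved by less than the spread between replicates, 23 moved by more and 3 reversed.

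The number of collagen probes called after heat in wildtype cells at 30 min (5) was 2 with median centring and 1 with slide as a block. At 240 min (8) it was 2 with an offset of 10, 0 with median centring, 0 with the Feature Extraction ratio, 4 among probes above background on all arrays, 5 with the brightest probes and 0 with slide as a block. For heat in the CHIP null at 30 min (27) it was 7 with median centring, 12 with the Feature Extraction ratio, 17 with the brightest probes and 10 with slide as a block, and at 240 min (16) it was 9 with an offset of 10, 5 with median centring, 2 with the Feature Extraction ratio, 9 among probes above background on all arrays, 10 with the brightest probes and 4 with slide as a block. For genotype it was 15 (brightest probes) and 14 (slide) in controls at 30 min (23), 10 (slide) in controls at 240 min (24), 13 (median centring) and 15 (slide) in heated cells at 30 min (23), and 12 (median centring) and 7 (slide) in heated cells at 240 min (21). Between sets it was 18 among probes above background on all arrays in wildtype controls (30), and 13 with the Feature Extraction ratio and 17 among probes above background on all arrays in CHIP null controls (28). The brightest probes and the stricter filter test fewer probes, and the other causes were not tested.

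With the replicate number as a block the counts were 5, 9, 28 and 16 for heat (wildtype at 30 and 240 min, CHIP null at 30 and 240 min), 24 and 24 for genotype in controls, 23 and 23 in heated cells, 0 and 0 for the interaction, and 31 and 29 for the sets. Leaving out 1 array gave 2 to 5 and 2 to 9 for heat in wildtype cells, 20 to 28 and 9 to 19 in the CHIP null, 19 to 21 and 20 to 24 for genotype in controls, 18 to 21 and 16 to 22 in heated cells, 0 to 2 and 0 to 0 for the interaction, and 27 to 33 and 25 to 29 for the sets. Counts moved most without wildtype control arrays 1 or 2 (2 each) or heated array 3 (3) at 30 min, without wildtype control arrays 1 (3) or 3 (2) or heated arrays 2 (4) or 3 (2) at 240 min, without CHIP null control array 1 or heated array 3 at 240 min (9 each), and for the interaction at 30 min without CHIP null heated array 1 (2).

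Reversed values after heat in the CHIP null at 30 min with median centring were -0.049 for Col4a1, -0.037 for Col4a4, -0.12 for Col16a1, -0.14 and -0.13 for Col1a1, -0.034 for Col1a2, -0.016 and -0.010 for Col2a1, -0.19 for Col3a1, -0.000744 for Col18a1, -0.18 for Col6a1, -0.076 for Col6a2 and -0.24 for Col6a3. An offset of 10 gave -0.046 for Col1a1 and -0.063 for Col1a2, the Feature Extraction ratio -0.18, -0.23 and 0.041 for Col1a1, Col1a2 and Col8a1, and the authors' deposited table -0.25, -0.23 and 0.041. At 240 min median centring gave -0.046 for Col9a3, -0.017 for Col1a1, -0.020 for Col17a1, -0.069 for Col6a1 and -0.11 for Col6a2. In controls at 30 min, genotype values reversed with median centring for Col4a2 (0.017) and Col2a1 (0.0085) and with slide as a block for Col1a1 (-0.14) and Col2a1 (0.085). Between sets the Feature Extraction ratio gave -0.80 for Col4a5, 0.91 for Col14a1, 0.79 for Col9a3, 0.000918 for Col11a2, 0.59 for Col1a2 and 1.22 for Col17a1 in wildtype controls, where an offset of 10 gave 0.095 for Col14a1 and median centring 0.092 for Col5a1, and 0.71 for Col14a1, 0.081 for Col22a1, 0.20 for Col17a1 and -0.14 for Col8a1 in CHIP null controls. The change of Col5a3 between sets was -0.10 with slide as a block. Dim probes limit these values, since 15 of the 46 tested probes were not above background on all 24 arrays.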
